A study of Bos taurus with 14 samples.

Results

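The genes described here are regulators and targets of NRF2, the transcription factor encoded by NFE2L2 that turns on antioxidant and detoxifying enzymes. Members were the genes NFE2L2, KEAP1, MAFG, GCLM, GCLC, HMOX1, NQO1 and TXNRD1, found on a bovine Agilent array by the gene symbol that the array files give for each probe. Of these 8 genes, 7 had a probe, 1 probe each, among 15011 distinct probes that name 6612 genes. No probe name matched GCLC, the catalytic subunit of glutamate-cysteine ligase, which is not analysed here. The probe for MAFG was recognised from the symbol in brackets in its sequence name, which states only a similarity to human MAFG.

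Liver of 3 Holstein cattle (animals 58, 61 and 66) and peripheral blood neutrophils of 4 other Holstein cattle (animals 25, 26, 32 and 34) were each sampled on day 0 and on day 7, which gave 14 arrays in 4 groups. All animals, described as heifers or steers, received β-cryptoxanthin, a carotenoid that can be cleaved to vitamin A, by mouth at 0.2 mg per kg body weight on day 0. No group without the carotenoid was analysed here, so the carotenoid and whatever else passed between day 0 and day 7 cannot be told apart. How the liver was sampled, and the age of the animals, are not given in the sources used here. Tissue, animals and scan run cannot be told apart, since each tissue lay in 1 of 2 scan runs, and each run held both days. Within a slide the arrays of day 0 filled one row of array positions and those of day 7 the other, so day and position on the slide cannot be told apart either.

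Between 57.1% and 76.7% of spots were well above background on an array, and precision is limited by the small number of arrays. The labelled tissues carried their own markers. Summed over a list of hepatocyte markers, the level on day 0 was 557 to 608 in liver and 0.230 to 0.281 in neutrophils, in units of the 75th percentile of each array, and ALB, APOB, TTR, SERPINA1 and AHSG were not well above background on any neutrophil array. A list of neutrophil markers summed to 406 to 475 in neutrophils and 3.71 to 9.72 in liver on day 0. In bulk samples, fewer cells of a type and less RNA per cell cannot be told apart.

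In unstressed cells KEAP1 holds NRF2 in a ubiquitin ligase complex and the protein is degraded. Oxidants and electrophiles modify KEAP1, after which NRF2 accumulates, pairs with a small MAF protein such as MAFG and binds antioxidant response elements in DNA. NRF2 is therefore controlled largely at the level of the protein, which arrays do not measure, and the transcripts of its targets are the usual readout of its activity. The liver uses these targets to detoxify drugs and to regenerate glutathione, and neutrophils meet the oxidants that they make themselves.

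Each level rests on 1 probe of 60 bases, and the sequences are shown because every statement on a gene depends on the stretch its probe detects. The last 30 bases of each probe are printed 5′ to 3′ as the array files give them, with capitals where they hold AATAAA, the canonical polyadenylation signal that lies close to the 3′ end of many transcripts:
NFE2L2: aaaagctggtactAATAAAggaatatcagg
KEAP1: aatagccctgtaactttcagatgaaaataa
MAFG: attttgtatatgatcAATAAAcgcctttaa
GCLM: taatagtgtaAATAAAagtcctttcttcac
TXNRD1: tctctgtaatcgcctggtgtattgaaactc
HMOX1: gccttgattgctgactttcatgtgaaataa
NQO1: gatattgtggccgaacaaaagaagctggaa
The letters AATAAA, searched on the printed strand alone and over all 60 bases, were found in the probes for NFE2L2, MAFG and GCLM, and in 11.3% of all probes. The MAFG probe was the poorest in G and C, at 23.3% against a median of 43.3% over all probes. The members' G and C content otherwise lay between 35% and 45%.

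The position of a probe on the array matters for the liver. The array has 192 rows of spots. The probes for GCLM and NFE2L2 lay in rows 4 and 5 at one edge, and MAFG lay in row 191 at the other. HMOX1 (row 176) and NQO1 (row 180) lay nearer that second edge, while KEAP1 (row 89) and TXNRD1 (row 107) lay in the middle. In liver, the probes of rows 1 to 9 had a median day 7 minus day 0 change of 0.83 on the log2 scale, with quartiles of 0.50 and 1.47, and those of rows 187 to 192 a median of -0.72, with quartiles of -1.14 and -0.45. In neutrophils the medians over the same rows were -0.07 and -0.17.

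The same rows were set against the inner rows of each array, those more than 40 rows from either edge, after the mean of the neutrophil arrays was taken off each probe. On the liver arrays of day 0, rows 1 to 9 deviated by -1.37 in animal 58, -1.38 in animal 61 and -1.60 in animal 66. Their deviation on day 7 was -0.09, -0.17 and -0.46. The neutrophil arrays deviated by -0.07 to 0.15 in these rows, but the subtraction of their own mean centres them near 0. Rows 187 to 192 deviated by 0.38, 0.35 and -0.01 in the livers of day 0 and by -0.37, -0.39 and -0.65 in those of day 7.

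One sequence, for the glycolytic enzyme GAPDH, was spotted 100 times over the array, and its own spots are compared here with no neutrophil mean taken off. Its 5 spots in rows 1 to 9 differed from its 57 spots in the inner rows by -1.55, -1.47 and -1.79 on day 0 and by -0.10, -0.27 and -0.22 on day 7. Its 4 spots in rows 187 to 192 differed by -0.18, -0.16 and -0.02 on day 0 and by -1.34, -1.21 and -1.29 on day 7. On the neutrophil arrays both deviations lay between -0.26 and -0.06. Each of these differences compares spots of 1 sequence on 1 array.

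**Figure D1:**
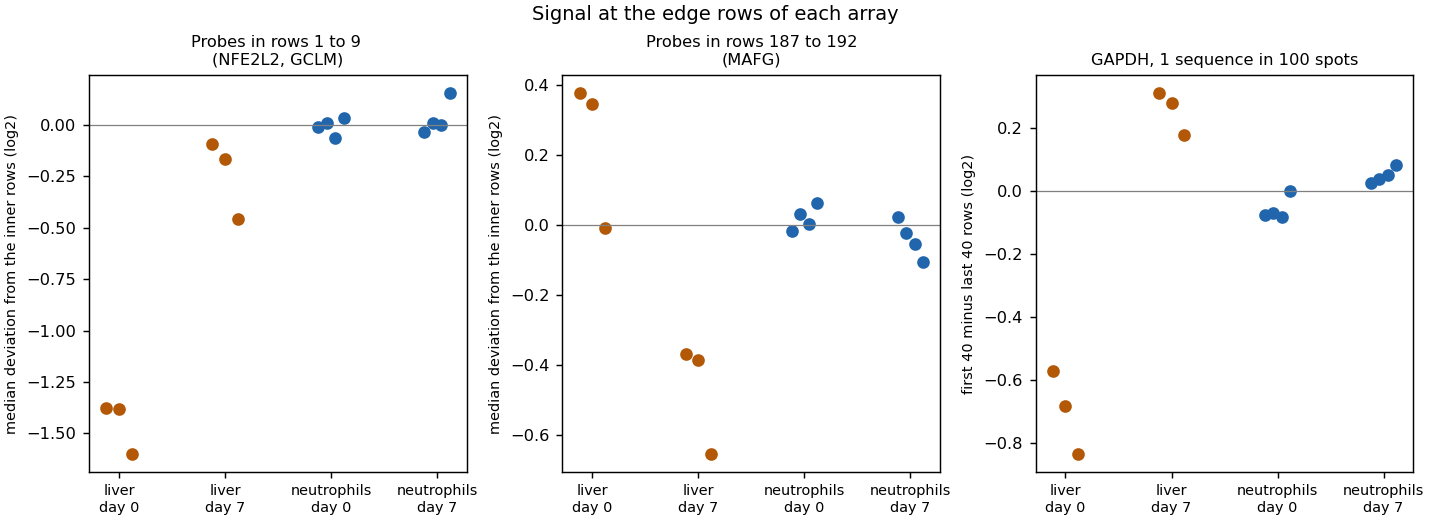
Left and middle, the median deviation of probes in the named edge rows from the inner rows of the same array (log2, after subtraction of the neutrophil mean of each probe); right, the difference between the first 40 and last 40 rows for the spots of 1 GAPDH sequence (log2). Each point is 1 array, and the liver arrays of day 0 lie at -1.60 to -1.37 in the left panel. The neutrophil arrays lie near 0 there, where the subtraction of their own mean centres them.

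Of the 6 members well above background on every liver array, 2 passed the test between the days, NFE2L2 and GCLM, both higher on day 7, against a background of 5.54% of such probes. MAFG was also called, as lower, but it entered the test through day 0 alone and was at background on day 7, so its call is not counted and a bound is given. With it the count was 3 of 7, beside 3.98% of all probes tested, 2.67% higher and 1.31% lower. All 3 lie in the edge rows. KEAP1, TXNRD1, HMOX1 and NQO1, which lie further in, did not pass. Where the median of the probes within 4 rows was subtracted on each array, neither NFE2L2 nor GCLM passed, and 0.439% of all probes did.

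Among the regulators, NFE2L2, which encodes NRF2 itself, was at -0.21, -0.58 and -0.44 in the livers of animals 58, 61 and 66 on day 0 and at 0.78, 0.72 and 1.103 on day 7. These and the following levels are log2 values relative to the 75th percentile of the array, and they compare samples for 1 probe, not genes. Every day 7 value lay above every day 0 value. The fitted change was 1.28 ± 0.14 (SE, n = 3 animals; adjusted p = 0.0226), or 2.43-fold. The other probes of rows 1 to 9 changed alongside, and 44.3% of those 442 probes were called higher. With the neighbouring rows subtracted the NFE2L2 change was 0.09 ± 0.20 (adjusted p = 0.886), and with a smooth row trend removed it was 0.37 ± 0.21 (adjusted p = 0.413).

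KEAP1, which encodes the inhibitor of NRF2, was at 1.998, 2.03 and 2.37 in the same livers on day 0 and at 2.09, 2.20 and 2.32 on day 7. The days overlapped, with a higher day 7 value in animals 58 and 61 and a lower one in animal 66. The change was 0.07 ± 0.10 (SE; adjusted p = 0.781), with a 95% interval from -0.20 to 0.34. The neighbouring rows had a median change of -0.03.

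MAFG, which encodes a small MAF protein that pairs with NRF2 on DNA, had the largest change of the members. Its processed signal was 244, 232 and 168 in the 3 livers on day 0 and 19.96, 13.9 and 7.20 on day 7, in the arbitrary units of the scanner. The day 7 spots were not well above background on any of the 3 arrays, so only a bound can be given. On the scale used here, with no correction for spot row, liver MAFG was at least 8.54-fold higher on day 0 than on day 7, where each dim array entered with the higher of its lowest well-measured signal and the probe's own signal. The bound, 3.09 on the log2 scale, holds for this scale alone. The fitted changes of -1.67 with normexp and -2.86 with the neighbouring rows subtracted, given below, are smaller in size than this bound. The fitted change was -3.78 ± 0.26 (SE, n = 3; adjusted p = 0.0107), from -2.64 ± 0.24 (SD) to -6.42 ± 0.86 (SD).

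Many neighbouring probes also fell, most of them by less. In row 191 the other 49 probes had a median change of -1.04, the lowest of them was -3.06, and 49.0% were called lower. Within 4 rows the lowest of 318 probes changed by -4.52. The fitted MAFG change was -2.86 ± 0.24 (adjusted p = 0.0265) after subtraction of the neighbouring rows and -3.10 ± 0.25 (adjusted p = 0.0389) with the row trend removed, both from the same dim day 7 spots. The size depends on the treatment of background. Before any scaling, the mean spot signal was 314, 302 and 235 on day 0 and 79.5, 78.7 and 68.9 on day 7, over a local background of 46 to 52. The change was -1.67 after normexp correction of the background and quantile normalization (SE 0.08, adjusted p = 0.00151).

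Among the targets, GCLM, the modifier subunit of the enzyme that makes the first step of glutathione synthesis, was at -0.24, -0.98 and -1.002 in animals 58, 61 and 66 on day 0. On day 7 it was at 0.92, 0.86 and 0.77, a spread of 0.07 (SD) against 0.44 (SD) on day 0. The days did not overlap, which held for 15.3% of all probes tested in liver. The change was 1.59 ± 0.17 (SE, n = 3; adjusted p = 0.0217), or 3.01-fold. Of 386 neighbouring probes in rows 1 to 8, 49.2% were called higher, with a median change of 0.93 and quartiles of 0.58 and 1.58. The GCLM change was 0.35 after subtraction of those rows (adjusted p = 0.598) and 0.65 with the row trend removed (adjusted p = 0.276).

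TXNRD1, the cytosolic thioredoxin reductase, was at 1.51, 1.54 and 1.78 on day 0 and at 1.58, 1.45 and 1.57 on day 7. The days overlapped and the change was -0.08 ± 0.11 (SE; adjusted p = 0.771), with a 95% interval from -0.36 to 0.21. This probe lies in the middle of the array, where the neighbouring rows had a median change of -0.05.

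HMOX1, haem oxygenase 1, which breaks down haem to biliverdin, iron and carbon monoxide, was at 4.23, 4.69 and 4.76 on day 0 and at 4.25, 4.67 and 4.35 on day 7. Animals 58 and 61 differed by 0.02 and -0.02 between the days, and animal 66 by -0.41. The change was -0.14 ± 0.13 (SE; adjusted p = 0.662), with a 95% interval from -0.48 to 0.21. Its neighbours had a median of -0.13, and with the row trend removed the sign turned, to 0.22 (adjusted p = 0.415).

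NQO1, a quinone reductase that is one of the most used readouts of NRF2, was dim in liver, with processed signals of 47.6, 154 and 85.8 on day 0 and 43.3, 140 and 109 on day 7. The animals kept their order on both days, with animal 58 lowest and animal 61 highest, and they differed from each other by more than the days did. On the log2 scale the values were -4.82, -3.12 and -3.89 on day 0 and -4.42, -3.13 and -3.34 on day 7. The change was 0.31 ± 0.15 (SE; adjusted p = 0.369), with a 95% interval from -0.07 to 0.69. Its neighbours had a median of -0.19, and the change was 0.61 after their subtraction (adjusted p = 0.238).

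**Figure D2:**
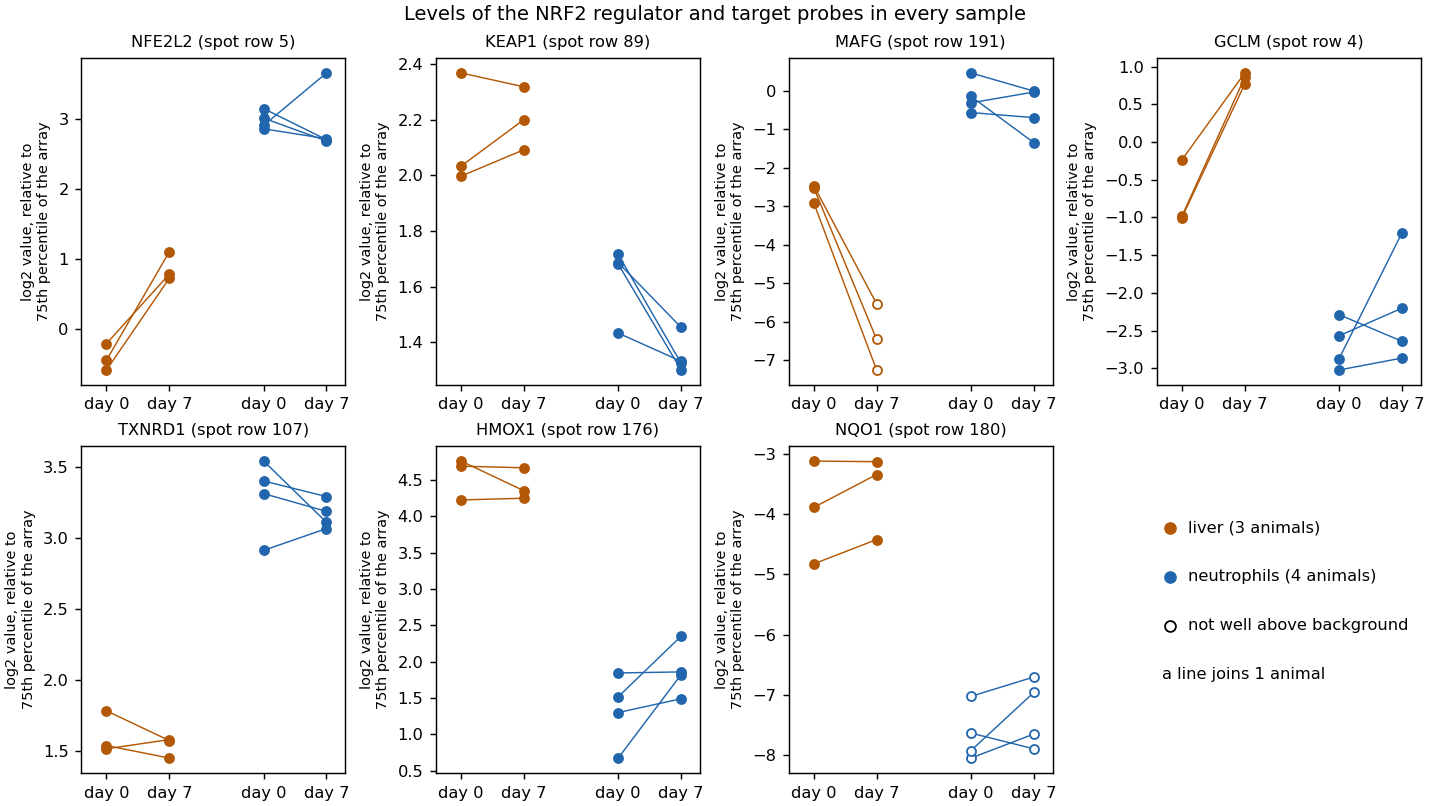
The log2 value of each member's probe, relative to the 75th percentile of its array, in every sample on day 0 and day 7; lines join the 2 samples of an animal and open points were not well above background. In liver the days separate for NFE2L2, MAFG and GCLM and overlap for the other 4 genes, and each panel has its own axis.

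**Figure D3:**
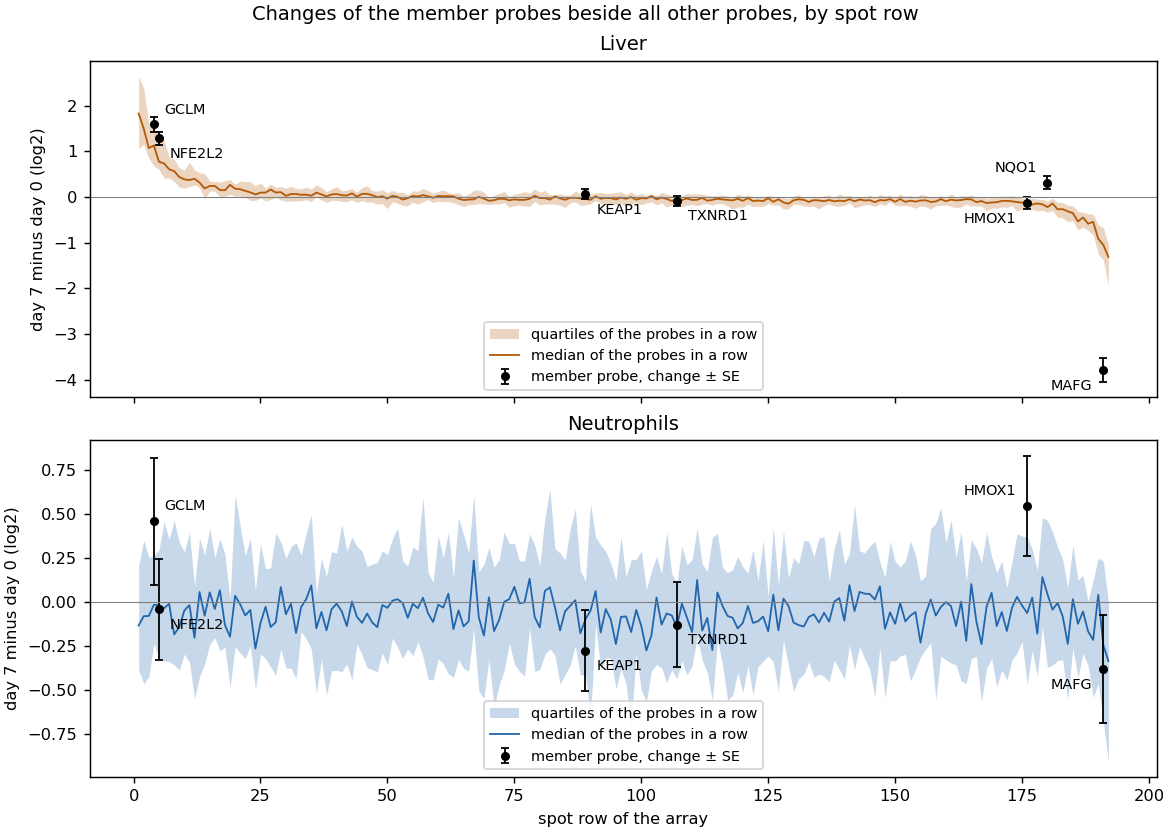
Day 7 minus day 0 change (log2) against the spot row of the array, in liver (top) and neutrophils (bottom); the line and band are the median and quartiles of all tested probes in a row, and black points are the member probes ± SE. In liver GCLM and NFE2L2 lie on the rise of the first rows and MAFG lies below the fall of the last rows. The neutrophil medians show no such rise and a smaller fall, to -0.34 in row 192 against -1.31 in liver.

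The liver calls of the members rest on 3 animals. Without animal 58 no member passed the threshold, and without animal 61 or animal 66 only MAFG did, while the fitted changes ranged from 1.15 to 1.43 for NFE2L2, from 1.46 to 1.81 for GCLM and from -4.14 to -3.50 for MAFG. Without the filter on dim probes none passed, with adjusted p of 0.142 for NFE2L2, 0.138 for GCLM and 0.110 for MAFG. In 1 fit over all arrays only MAFG passed, with adjusted p of 0.0613 for NFE2L2 and 0.0810 for GCLM.

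Markers of skeletal muscle moved with the day in the same livers. Of 10 tested, 9 were called higher on day 7, with a median change of 6.34. Their summed level lay between 0.293 and 0.833 before and between 5.10 and 19.7 on day 7. The hepatocyte markers summed to between 664 and 751 on day 7, and 1 of 10 was called higher. The neutrophil markers in liver summed to between 2.42 and 2.87 on day 7, below their day 0 range, with none of 6 tested called. The part of muscle or neutrophil transcripts in the members' changes was not tested.

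In neutrophils none of the 6 members tested passed, where the background was 0%: limma called none of 9449 probes, although 1267 had an unadjusted p under 0.05. No member had an unadjusted p under 0.05, and the days overlapped for every member, while 9.38% of all probes had days that did not overlap. NQO1 was not tested, since its spot was not well above background on any neutrophil array.

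Neutrophil NFE2L2 was at 3.01, 3.14, 2.85 and 2.90 on day 0 in animals 25, 26, 32 and 34 and at 2.68, 2.70, 2.71 and 3.65 on day 7. It was lower on day 7 in 3 of 4 animals and higher in animal 34, and the change was -0.04 ± 0.29 (SE; adjusted p = 0.955), with a 95% interval from -0.72 to 0.64. The array of animal 34 on day 7 had the lowest 75th percentile of all, 568 against 762 to 1349 on the other 13 arrays. Its NFE2L2 processed signal, 7138, lay among the 4994 to 8619 of the other neutrophil arrays of day 7. Its KEAP1 processed signal, 1424, was the lowest of those arrays. The part of the scaling in the NFE2L2 value was not tested.

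Neutrophil KEAP1 was at 1.68, 1.69, 1.43 and 1.72 on day 0 and at 1.30, 1.45, 1.33 and 1.33 on day 7. It was lower in 4 of 4 animals, and the days overlapped only through animal 32 on day 0 and animal 26 on day 7. The change was -0.28 ± 0.23 (SE; adjusted p = 0.590). Neutrophil MAFG was at -0.57, 0.46, -0.15 and -0.32 on day 0 and at -0.70, -0.01, -1.35 and -0.04 on day 7, all well above background. The change was -0.38 ± 0.31 (SE; adjusted p = 0.574), with the lowest value in animal 32 on day 7. It was -0.11 without that animal and -0.60 without animal 34. With neighbouring rows subtracted the MAFG change was -0.17, and with the row trend removed -0.24.

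Of the targets in neutrophils, HMOX1 was higher on day 7 in 4 of 4 animals. It was at 1.52, 0.67, 1.30 and 1.85 on day 0 and at 2.35, 1.82, 1.49 and 1.86 on day 7. Day 7 exceeded day 0 by 0.83 in animal 25 and 1.15 in animal 26 but by 0.19 and 0.01 in animals 32 and 34, and the days overlapped. The fitted change was 0.55 ± 0.29 (SE; adjusted p = 0.429), with a 95% interval from -0.13 to 1.22. Without animal 26 it was 0.35 (adjusted p = 0.784).

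GCLM was at -2.29, -3.02, -2.87 and -2.57 in neutrophils on day 0 and at -2.64, -2.86, -1.21 and -2.20 on day 7. Animal 32 was higher by 1.67 on day 7, and the other animals lay within 0.37 of their day 0 value. The change was 0.46 ± 0.36 (SE; adjusted p = 0.565), and without animal 32 it was 0.06 and without animal 25 0.73. TXNRD1 was at 3.399, 3.54, 2.91 and 3.31 on day 0 and at 3.29, 3.11, 3.06 and 3.18 on day 7, a change of -0.13 ± 0.24 (SE; adjusted p = 0.819).

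Markers of T and NK cells in the neutrophil samples summed to between 26.1 and 52.3 on day 0 and to between 41.8 and 129 on day 7, with none of 7 called. The only eosinophil marker measured lay between 1.14 and 3.71 on day 0 and between 0.509 and 0.747 on day 7. The part of these cells in the members' values was not tested.

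**Figure D4:**
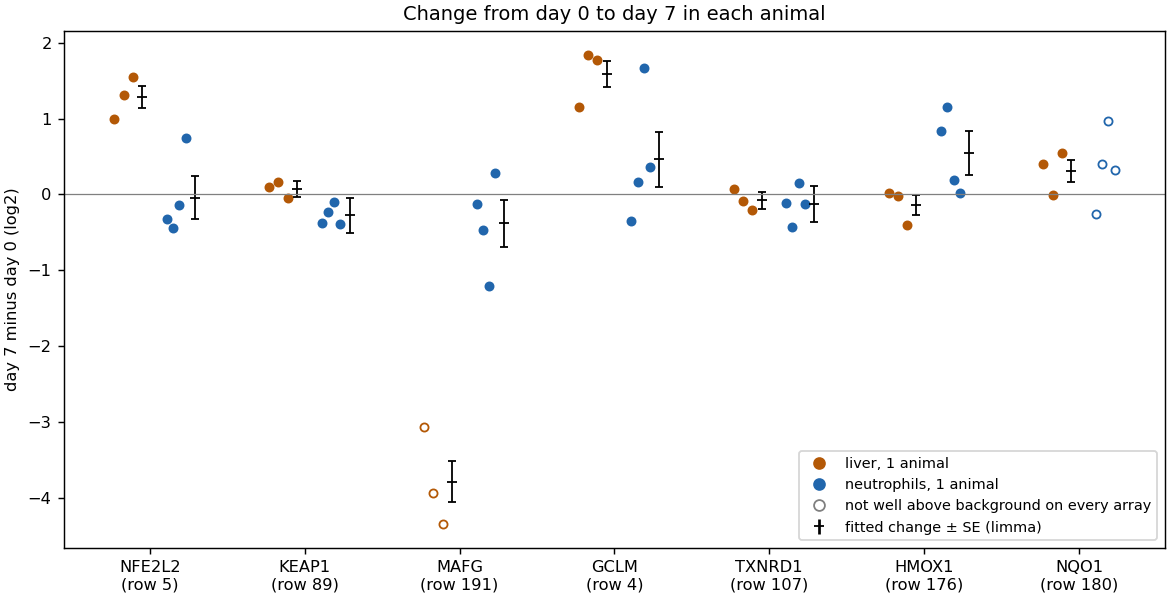
Day 7 minus day 0 change (log2) of each member in each animal, for liver (orange, 3 animals) and neutrophils (blue, 4 animals), with the fitted change ± SE in black; open points include a spot that was not well above background. The liver changes of MAFG lie between -4.34 and -3.07, and HMOX1 lies at or above 0 in all 4 neutrophil animals.

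Whether the change differed between the tissues was tested for 5 members well above background on every array. None passed, where 1.55% of such probes did, and GCLM and NFE2L2 had an unadjusted p under 0.05. MAFG, whose 3 liver spots of day 7 were not well above background, was called when probes dim in 1 group were kept, where 1.14% of all probes were called and 0.419% were more negative in liver. Its fitted change in liver minus that in neutrophils was -3.40 ± 0.44 (SE; adjusted p = 0.0114), a value that rests on those dim spots and is no exact size. This difference was -2.69 with the neighbouring rows subtracted (adjusted p = 0.122), -2.86 with the row trend removed (adjusted p = 0.0672) and -0.99 with normexp correction (adjusted p = 0.155). It no longer passed without animal 61 (adjusted p = 0.0860), animal 66 (adjusted p = 0.0677) or animal 25 (adjusted p = 0.0694). For NFE2L2 the difference was 1.32 ± 0.35 (adjusted p = 0.134), for GCLM 1.13 ± 0.47 (adjusted p = 0.345) and for HMOX1 -0.68 ± 0.34 (adjusted p = 0.446). Without animal 34 the NFE2L2 difference was 1.59 (adjusted p = 0.0191), with no row correction. With neighbouring rows subtracted, NFE2L2 changed by 0.09 in liver and -0.09 in neutrophils, and GCLM by 0.35 and 0.41. With the row trend removed, NFE2L2 changed by 0.37 in liver and -0.09 in neutrophils, and GCLM by 0.65 and 0.41.

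The levels on day 0 were also compared between the tissues. The 6 members well above background on every day 0 array all differed between liver and neutrophils, where 82.4% of such probes did, so a difference as such does not set them apart. NQO1 was tested only through liver, where it is brighter, and is given as a bound. With it the count was 7 of 7, beside 83.1% of all probes. The regulators NFE2L2 and MAFG and the target TXNRD1 were lower in liver, and KEAP1 and the targets GCLM, HMOX1 and NQO1 were higher there. On the scale used here, the 3 liver values and the 4 neutrophil values of each member did not overlap, which held for 82.5% of all probes.

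NFE2L2 was at -0.41 ± 0.19 (SD, n = 3) in liver and 2.98 ± 0.13 (SD, n = 4) in neutrophils, a difference of -3.39 ± 0.16 (SE; adjusted p = 2.74e-07). The NFE2L2 probe lies in the first rows, which were low on the day 0 liver arrays, and their part in this difference was not tested. The difference was -2.29 with the row trend removed and -2.07 between the day 7 arrays, both past the threshold. In order, neutrophils on both days were highest and did not differ beyond their spread, followed by liver on day 7 and liver on day 0. The order of the liver days rests on the values without a row correction and was not called with one.

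GCLM was highest in liver on day 7, then liver on day 0, then neutrophils, whose days overlapped, and its liver days have the same limit. Liver exceeded neutrophils by 1.95 ± 0.26 (SE; adjusted p = 0.000149) on day 0, at -0.74 ± 0.44 (SD, n = 3) against -2.69 ± 0.33 (SD, n = 4). This was 3.08 with the row trend removed and 3.08 between the day 7 arrays.

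KEAP1 differed by 0.50 ± 0.17 (SE; adjusted p = 0.0203), the smallest of the members' differences, from 2.13 ± 0.20 (SD, n = 3) in liver and 1.63 ± 0.13 (SD, n = 4) in neutrophils. It did not pass without animal 66 (0.39, adjusted p = 0.0768). With the neighbouring probes subtracted it was -0.09 (adjusted p = 0.677). That setting moved the median difference of all probes from -0.12 to -0.41, a smaller shift than that of KEAP1. It was the only setting tried in which the KEAP1 direction turned. MAFG differed by -2.49 ± 0.26 (SE; adjusted p = 3.09e-05) on day 0. On day 7, when it was dim in liver, it was at least 36.9-fold higher in neutrophils, again on this scale with no row correction.

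HMOX1 was at 4.56 ± 0.29 (SD, n = 3) in liver and 1.33 ± 0.49 (SD, n = 4) in neutrophils, a difference of 3.22 ± 0.29 (SE; adjusted p = 1.16e-05), or 9.35-fold. The day 7 difference was 2.54, and the liver days did not differ beyond their spread. TXNRD1 was at 1.61 ± 0.15 (SD, n = 3) in liver and 3.29 ± 0.27 (SD, n = 4) in neutrophils, a difference of -1.68 ± 0.19 (SE; adjusted p = 5.23e-05), and it was -1.63 between the day 7 arrays. NQO1 in neutrophils had processed signals of 3.82 to 8.49, all not well above background. Liver NQO1 was at least 2.90-fold higher on day 0 and at least 2.60-fold higher on day 7, by the same rule for dim spots as above. These bounds hold for the processed signal alone. The mean spot signal less the local background lay closer together than the bounds state, and on day 0 the tissues overlapped. On day 0 it was 56.5, 162 and 89.3 in animals 58, 61 and 66 against 31.2 to 64.8 in neutrophils. On day 7 it was 56.4, 150 and 117 against 36.3 to 48.6.

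**Figure D5:**
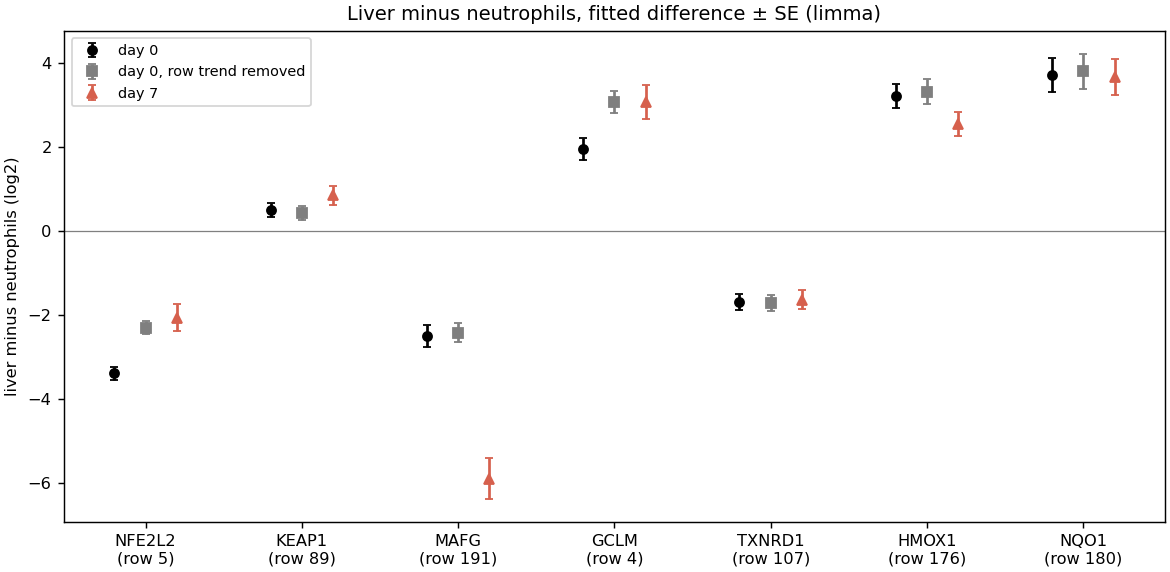
Liver minus neutrophils for each member (log2, fitted difference ± SE) on day 0, on day 0 after removal of each array's row trend, and on day 7. The direction is the same in all 3 for every member, and the size shifts for several, among them NFE2L2, GCLM, MAFG and HMOX1. The points of NQO1 and of MAFG on day 7 include spots not well above background, for which the text gives bounds.

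The probes whose values ran most like each member over the 14 arrays, after the mean of each tissue was taken off, were taken from 3627 or 3628 named probes well above background on every array. The 14 arrays share animals, days and row trends, so these correlations are a description. For NFE2L2 they were P4HA1 in row 6 (r = 0.96) and TSPYL1 in row 2 (r = 0.94). For GCLM they were TRMT13 in row 2 (r = 0.86) and ITGB5 in row 1 (r = 0.86), and for MAFG SDHD in row 190 (r = 0.94) and GNAS in row 189 (r = 0.92). Each of these 6 probes lies within 4 rows of its member. KEAP1, HMOX1 and TXNRD1 were matched by probes at least 5 rows away: KEAP1 by BECN1 and RAB11A (r = 0.87 for both), HMOX1 by GCNT2 and RPLP0 (r = 0.91 for both) and TXNRD1 by SF3B2 (r = 0.85) and ABHD5 (r = 0.81). NQO1, in row 180, was matched by S100A12 in row 147 (r = 0.84) and by S100A8 in row 181 (r = 0.80), with neutrophil spots at background level.

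A list of 66 other genes of the pathway had 35 on the array. In liver none of 33 tested passed in either direction. Of these 33, 11 had an unadjusted p under 0.05, a larger share than the 17.9% of all probes, and the difference in share was not tested. Their median change was 0.18, beside -0.04 over all probes. The count depended on the setting. Among probes well above background on every array 2 of 33 passed, beside 5.54% of such probes. With normexp and quantile normalization 2 passed, beside 584 of 10933 probes, and at an adjusted p under 0.1 3 passed, beside 790. With either row correction none passed. The largest change was that of PRDX6, a peroxiredoxin that also repairs oxidised phospholipids, at 1.42 ± 0.30 (SE; adjusted p = 0.0902). GSTA4, a glutathione transferase for lipid aldehydes, changed by 0.74 ± 0.13 (adjusted p = 0.0654), and BLVRB, a biliverdin reductase, by 0.67 ± 0.11 (adjusted p = 0.0510). PRDX6 lies in row 25, GSTA4 in row 36 and BLVRB in row 20. With the row trend removed their changes were 1.06, 0.57 and 0.18, and with the neighbouring rows subtracted 1.24, 0.66 and 0.43.

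In neutrophils none of 33 tested passed, and the median was 0.01 beside -0.07 over all probes. Of these 33, 7 had an unadjusted p under 0.05, a larger share than the 13.4% of all probes, again with no test of the shares. SQSTM1, which encodes the autophagy adaptor p62 that binds KEAP1, changed by -1.47 ± 0.50 (SE; adjusted p = 0.327). The peroxiredoxin PRDX1 changed by 1.20 ± 0.27 (SE; adjusted p = 0.301). None of 31 passed for the difference between the tissues, where 6 had an unadjusted p under 0.05, a larger share than the 13.5% of all probes.

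Between the tissues on day 0, 18 of the 35 pathway genes were higher in liver and 11 lower, beside 39.7% and 43.5% of all probes. Of the 5 genes that supply NADPH, 4 were lower in liver. Among these were the pentose phosphate enzymes PGD by -4.42 ± 0.23, TALDO1 by -4.04 ± 0.20 and TKT by -4.11 ± 0.16 (SE). IDH1, the cytosolic isocitrate dehydrogenase, was 5.01 ± 0.23 higher in liver. Of the 9 genes for conjugation and for quinone and carbonyl handling, 7 were higher in liver and none lower, among them NQO2, a relative of NQO1, by 3.86 ± 0.16 (SE). TALDO1 lies in row 12 and NQO2 in row 16, and with the row trend removed their differences were -3.19 and 4.56. SQSTM1 was lower in liver, by -1.73 ± 0.18 (SE).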

How the data were processed

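Total RNA was labelled with Cy3 by linear amplification and hybridised to 1-colour arrays, per the labels' protocols. The spot intensity used is the processed signal of Agilent Feature Extraction, background-subtracted by that software (version 9.5 per the submitters' processing notes, 9.5.1.1 per the file headers). The mean spot and background intensities are raw pixel values in the deposited files. In the deposited value table the log2 values are those same signals less 1 constant for each array, 0.007 to 0.013 from the scaling used here, with a correlation of 1 and column medians of -3.55 to -2.69. Quality flags, sequences and grid positions are other columns of the deposited scanner files. No coordinates are printed, since a genome build was not given in the sources used here.

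Each value is log2 of the processed signal minus the 75th percentile of the array, with outlier spots (0 to 18 per array) and control spots left out and saturated spots (0 to 3) kept. Names came from the files and, by accession or gene number, from a RefSeq gene table of assembly ARS-UCD2.0: 6802 of 15011 probes have 1 symbol, 2 several and 8207 none. The tests took probes that were well above background throughout at least 1 compared group: 10933 in liver, 9449 in neutrophils, 8841 for the difference of changes and 11494 between tissues. Tests were limma 3.58.1 in R 4.3.3 (lmFit, eBayes) over all of these, two-sided, with Benjamini-Hochberg adjustment and a threshold of 0.05. They were also run on simulated data. That noise held no row or animal effects and was scaled down from the spread of these data, so the simulation does not bear on the calls here. SE are moderated by eBayes and are not the spread between animals. The animal was a block in the day comparisons, since each animal is named in the labels of both days. The paired deviations correlated by 0.65, 0.31 and 0.61 in liver and by 0.61, 0.36, 0.03 and 0.24 in neutrophils.

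The members and lists were chosen with earlier results of these data known. Every member probe is given. Like-varying genes are the 2 best correlated named probes, and pathway genes are given by counts with the largest changes. Alternatives were no block, other normalizations (normexp with offset 50; quantile), the authors' values, other filters and thresholds, 2 corrections for spot row (a loess trend with span 0.3; the median within 4 rows), the rows more than 40 from either edge, array weights, 1 fit over all arrays and each animal left out. Promoter motifs were not analysed here.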

Additional observations from a re-analysis of the deposited data

Results flagged for a closer look

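NFE2L2 in the neutrophils of animal 34 on day 7, at 3.65, lay far from the other 3 animals, at 2.68 to 2.71. KEAP1 in the neutrophils of animal 32 on day 0, at 1.43, lay far below the others, at 1.68 to 1.72. These are 2 of 21 combinations of a member with a group or change tested for a far value, and chance alone marks about 1 in 20.

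The change of MAFG differed between liver and neutrophils by -3.40 (limma, adjusted p = 0.0114). This rests on 3 liver spots of day 7 that were not well above background, and the probe is not tested when only probes above background on every array are kept.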

How the results depend on the processing

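Of 394 member values under the alternatives, 353 kept their direction and their side of the threshold, 23 no longer passed, 3 newly passed and 15 changed sign, none of the last with both values past the threshold. Where no cause is named, the cause was not tested. In liver, 435 probes passed, against 790 at an adjusted p under 0.1, 210 with no replicate block, 177 in 1 fit over all arrays, 48 with neighbouring rows subtracted, 31 with the row trend removed, 0 without the filter on dim probes (limma, 1855 at an unadjusted p under 0.05), 0 in the inner rows (fewer probes tested, 623 at an unadjusted p under 0.05) and 0 to 159 with 1 animal left out. The 3 members called in liver became 0 without the filter and 1 with either row correction or in 1 fit over all arrays, and 0 to 1 with an animal left out. They were also called with no replicate block, where each liver array counts as independent, which changed no other call of a member. In neutrophils, where no probe passed, 24 did in 1 fit over all arrays and 4307 with array weights, among them 2 members, HMOX1 at 0.84 (adjusted p = 0.00188) and KEAP1 at -0.35 (adjusted p = 0.0343). Those weights were 8.89 and 8.83 for the arrays of animal 25 and 0.24 to 1.42 for the rest. For the difference of changes, 101 probes passed, against 225 at an adjusted p under 0.1, 66 without the filter, 13 with the row trend removed, 11 with neighbouring rows subtracted, 0 in the inner rows (502 at an unadjusted p under 0.05) and 15 to 267 with an animal left out. The 1 member called there became 0 with normexp correction, with a stricter filter (MAFG is then not tested) or with either row correction, and 0 to 2 with an animal left out. Between tissues, 9554 passed, against 5585 in the inner rows.

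Sign changes were HMOX1 in liver (0.22 with the row trend removed, 0.053 with neighbouring rows subtracted, -0.216 to 0.00063 with an animal left out), TXNRD1 in liver (0.026 with neighbouring rows subtracted), NFE2L2 in neutrophils (0.0806 with normexp and 0.0807 with quantile normalization, -0.304 to 0.0935 with an animal left out), GCLM in neutrophils (-0.21 with array weights), GCLM in the difference of changes (-0.0543 with neighbouring rows subtracted), TXNRD1 there (-0.0592 with normexp and -0.0610 with quantile normalization, -0.0504 to 0.145 with an animal left out) and KEAP1 between tissues (-0.0934 with neighbouring rows subtracted). Members in rows outside the inner rows have no value in the inner-row alternative. Signal over background limits NQO1 in neutrophils and MAFG in liver on day 7 to bounds.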
